A study of Drosophila melanogaster with 3 samples.

Results

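The genes encoding subunits of the proteasome were taken as the protein-coding genes of the Ensembl BDGP6 annotation whose names start with Prosalpha, Prosbeta, Rpn plus a digit or Rpt plus a digit. The name rule found 48 genes among the 13968 protein-coding genes of the chromosome arms. Of these, 14 encode the core particle and 18 the regulatory particle and have no testis suffix; they are called broadly expressed here by name alone. The other 16 carry an R or T after the subunit number and are called testis-type, again from the name and not from any measurement of expression.

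The data are chromatin immunoprecipitation with sequencing (ChIP-seq) of the heterochromatin protein Su(var)3-7, which has zinc fingers and is a partner of Su(var)205 (HP1a). There was 1 group of 3 biological replicates: whole Drosophila melanogaster embryos of strain Su(var)3-7-GFP, sexes mixed, collected between 0 and 24 h of development. The embryos stably carried a transgene for Su(var)3-7 with GFP at its C terminus, the chromatin was sheared by sonication, and an antibody to GFP was used. Values therefore describe the tagged protein, averaged over all embryonic cells and stages. No untagged or mock precipitation was analysed here, so the lists below give the authors' own enrichment over a control file and no further background.

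The proteasome degrades proteins marked with ubiquitin. Its core particle is a barrel of outer alpha rings, which form the gate, and inner beta rings, which hold the proteolytic sites. The regulatory particle caps the barrel: its base contains the Rpt ATPases, which unfold the substrate, and Rpn subunits that serve as scaffold and ubiquitin receptors, and its lid contains the deubiquitinase Rpn11 and scaffold subunits. Several Drosophila subunits have paralogues that are known for expression in the testis.

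A gene was counted as having a start-site summit when the highest point of a listed region lay within 500 bp of any of its annotated transcript starts. The thresholded list held the 4055 regions that the authors kept by the irreproducible discovery rate, and these were also the 4055 strongest of their 30000 pooled relaxed regions. Signal is the region strength in the authors' lists. Its scale was not stated, and it was used only within a list. Thresholded regions had signals of 118.8 to 3827 with a median of 181, while the median of the pooled list was 52.9. For each replicate, signals are given as multiples of that replicate's own list median, which was 19.2 in replicate 1, 25.5 in replicate 2 and 18.2 in replicate 3, and a value was assigned when a region's summit lay within 200 bp of the pooled one. Replicate numbers are those of the labels. A member of each replicate's 4055 strongest regions is called strong in that replicate.

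The following sequences show DNA around thresholded summits and at start sites. Those around summits are the strongest member region (Rpn5), a region between divergent genes (Rpt5), and regions at single promoters (Rpn12 and Rpn10). Those at the first start site are a broadly expressed gene and its testis-type paralogue (Prosalpha6 and Prosalpha6T). The pooled region of Prosalpha6 was below the threshold, and Prosalpha6T had no pooled start-site region. All sequences are on the plus strand of dm6, 5′ to 3′, from the RefSeq genome of that build. They were cut so that at most 30 bases of annotated exon remain at either end. Capitals mark CGATA on either strand, read as CGATA or TATCG. The intervals are chr3R:5789051-5789350 for Rpn5, chr3R:23752805-23752905 for Rpt5, chr3L:16582829-16583057 for Rpn12, chr3L:21536866-21537029 for Rpn10, chr2L:10221187-10221380 for Prosalpha6 and chr2L:13231869-13232068 for Prosalpha6T.
Rpn5: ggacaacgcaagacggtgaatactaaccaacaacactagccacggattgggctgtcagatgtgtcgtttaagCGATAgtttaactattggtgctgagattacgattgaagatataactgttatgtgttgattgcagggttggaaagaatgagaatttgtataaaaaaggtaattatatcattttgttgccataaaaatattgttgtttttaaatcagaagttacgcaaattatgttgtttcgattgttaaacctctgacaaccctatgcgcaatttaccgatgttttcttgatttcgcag
Rpt5: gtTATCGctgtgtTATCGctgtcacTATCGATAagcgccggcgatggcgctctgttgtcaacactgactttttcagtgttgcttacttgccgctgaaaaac
Rpn12: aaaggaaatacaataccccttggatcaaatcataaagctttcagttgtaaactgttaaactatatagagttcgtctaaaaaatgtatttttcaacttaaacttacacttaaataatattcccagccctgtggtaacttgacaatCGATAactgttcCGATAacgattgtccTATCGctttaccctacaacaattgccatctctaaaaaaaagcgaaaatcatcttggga
Rpn10: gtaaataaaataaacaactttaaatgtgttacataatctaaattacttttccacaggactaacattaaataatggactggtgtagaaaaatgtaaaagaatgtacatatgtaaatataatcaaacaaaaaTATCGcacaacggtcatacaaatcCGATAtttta
Prosalpha6: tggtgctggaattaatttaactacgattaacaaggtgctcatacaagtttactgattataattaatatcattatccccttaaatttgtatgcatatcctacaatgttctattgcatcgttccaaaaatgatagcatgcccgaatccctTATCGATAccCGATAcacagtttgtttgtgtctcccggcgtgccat
Prosalpha6T: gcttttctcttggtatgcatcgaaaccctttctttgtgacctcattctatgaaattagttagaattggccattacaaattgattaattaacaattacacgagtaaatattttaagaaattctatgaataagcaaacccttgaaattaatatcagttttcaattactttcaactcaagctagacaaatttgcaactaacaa

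The first question was how often the tagged protein was listed at proteasome gene starts. A thresholded start-site summit was present at 12 of the 48 proteasome genes (25.0%; exact Clopper-Pearson 95% interval 13.6% to 39.6%), against 2577 of all 13968 protein-coding genes (18.4%). All 12 were broadly expressed members, so that the share was 37.5% of the 32 broadly expressed genes (21.1% to 56.3%). None of the 16 testis-type genes had one, and a count of 0 allows a share of up to 18.8%, which includes the background share. Within the broadly expressed genes, the regulatory particle had 9 of 18 (50.0%, 26.0% to 74.0%) and the core particle 3 of 14 (21.4%, 4.66% to 50.8%). The share in the core particle was near the background, and the intervals of both particles overlap. These intervals cover the counting of genes only, and the differences between the gene sets were not tested.

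The regulatory particle also had the highest share of these sets within each replicate. Of the 32 broadly expressed genes, 10 had a strong start-site region in replicate 1, 11 in replicate 2 and 10 in replicate 3, or 32.3% ± 1.80 (SD, n = 3), against 18.7%, 17.7% and 18.5% of all genes, or 18.3% ± 0.538 (SD, n = 3). In the regulatory particle 8, 9 and 8 of 18 genes were strong (46.3% ± 3.21, SD, n = 3), and in the core particle 2 of 14 in each replicate (14.3%). No testis-type gene was strong in any replicate. The core particle was below the share of all genes in all 3 replicates and above it in the thresholded list, so its position relative to the background depends on which list is read.

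The relaxed list separated the broadly expressed and testis-type genes further. A pooled relaxed start-site region was listed for 30 of the 32 broadly expressed genes (93.8%), including 18 of 18 in the regulatory particle and 12 of 14 in the core particle (85.7%). It was listed for 1 of the 16 testis-type genes (6.25%) and for 7246 of all genes (51.9%). By the authors' name for it, the pooled relaxed list holds peaks and background, so a listing alone is not a peak. The broadly expressed count includes Prosalpha2 and Rpn7, at 0.731 and 0.634 times the pooled median and without a matched region in any replicate. By replicate the broadly expressed count was 26, 27 and 26 (82.3% ± 1.80, SD, n = 3), the testis-type count 2, 3 and 1, and the share of all genes 51.4%, 51.6% and 50.4% (51.2% ± 0.627, SD, n = 3). With unlisted genes ranked lowest, the median pooled signal was 115.8 in the regulatory particle, 61.2 in the core particle and 95.7 over all broadly expressed genes, against 36.4 over all protein-coding genes.

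**Figure D1:**
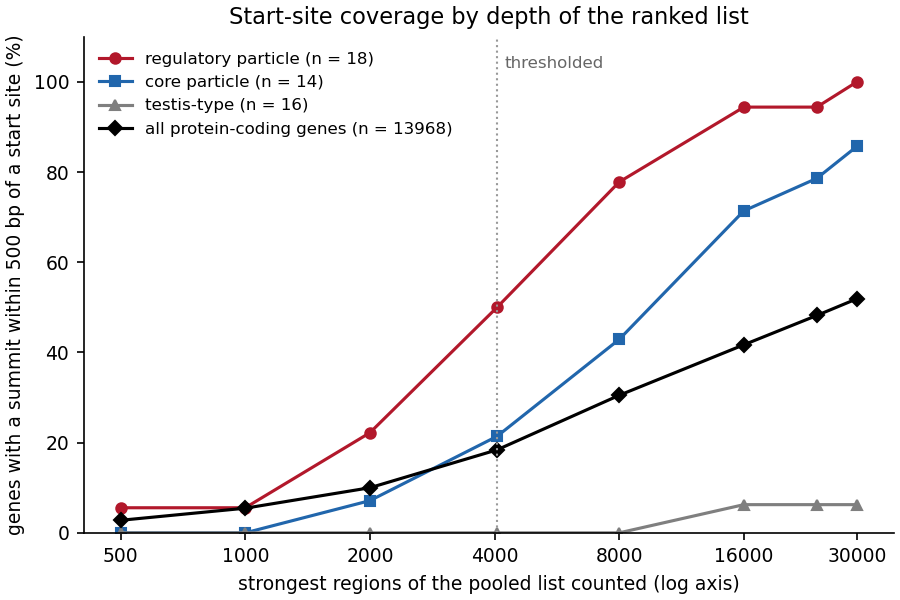
Share of genes with a region summit no more than 500 bp from a start (y axis, percent) against the number of strongest pooled regions counted (x axis, log scale), for regulatory particle, core particle, testis-type and all protein-coding genes; the dotted line marks the 4055 thresholded regions. The regulatory particle reaches 77.8% at 8000 regions, when the core particle is at 42.9% and all genes are at 30.5%, and the testis-type genes stay at 0 up to that depth.

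The curve of share against list depth shows where in the ranking the members enter. Among the 1000 strongest pooled regions, 5.56% of the regulatory particle genes and none of the core particle genes had a summit, against 5.46% of all genes. At 2000 regions the shares were 22.2% for the regulatory particle, 7.14% for the core particle and 10.0% for all genes. At 16000 regions they were 94.4%, 71.4% and 41.7% in the same order. Proteasome genes were therefore not concentrated among the very strongest regions: in the thresholded list the median signal of the 12 members was 177, and that of all genes with a thresholded summit was 191.

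In the lid of the regulatory particle, 4 of 8 genes had a thresholded summit: Rpn3, Rpn5, Rpn6 and Rpn12, all scaffold subunits. Rpn5 had the strongest region of any member, with a signal of 405 (rank 490 of the pooled list) in a region 203 bp wide at 3R 5789055 to 5789257. Its signal was 7.04, 5.61 and 6.90 times the list median in replicates 1, 2 and 3 (6.52 ± 0.789, SD, n = 3). This was the highest value of any member in every replicate. The summit lay 292 bp upstream of the Rpn5 start and 127 bp upstream of an inner start of Hat1, a histone acetyltransferase gene transcribed away from Rpn5, so the nearer gene was Hat1. A further thresholded summit, of signal 235, lay 79 bp upstream of Rpn5, in a region at 3R 5789202 to 5789625. Another gene's start was nearer to this summit too, as giving each summit to its nearest gene alone left none to Rpn5.

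Rpn6 and Rpn3 were also listed strongly in all replicates. The Rpn6 region (2R 14752183 to 14752606, signal 235) had 3.71, 3.19 and 4.16 times the list median in replicates 1, 2 and 3 (3.69 ± 0.486, SD, n = 3). Its summit was 124 bp upstream of an inner Rpn6 transcript start, inside the gene as annotated from the outermost start, and 126 bp upstream of ave, which encodes a signalling adaptor. The Rpn3 region (2L 19051608 to 19052031, signal 216) had 3.58, 3.32 and 3.71 times the median (3.54 ± 0.194, SD, n = 3). Its summit lay 30 bp downstream of a start, which makes it one of the 2 thresholded members with a summit downstream of the start, and 208 bp upstream of l(2)37Bb. Rpn12 (3L 16582767 to 16583190, signal 135) was more variable, with 2.88, 2.11 and 1.50 times the median (2.16 ± 0.692, SD, n = 3), and was strong in replicate 1 alone. The Rpn12 summit was 49 bp upstream of its start and no other gene started within 500 bp of it.

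In the base, 3 of the 4 non-ATPase genes had a thresholded summit. Rpn13, a ubiquitin receptor that binds the deubiquitinase Uch-L5, had a signal of 256 (2R 13960258 to 13960681) and 3.82, 4.67 and 3.31 times the median in replicates 1, 2 and 3 (3.93 ± 0.686, SD, n = 3). Its summit was 66 bp upstream of the start and 205 bp upstream of CtsL1, a lysosomal cathepsin gene. Rpn2, the large scaffold of the base, had a signal of 177 (3R 29153168 to 29153591) and 3.11, 2.96 and 2.85 times the median (2.97 ± 0.133, SD, n = 3), the smallest spread among the thresholded members listed in all replicates. The summit was 144 bp upstream of Rpn2 and 114 bp upstream of Slbp, the gene of the histone mRNA stem-loop binding protein, which was the nearer of both. Rpn10, another ubiquitin receptor, had a signal of 123 (3L 21536804 to 21537227), close to the lowest thresholded signal. It was at 2.32 and 2.21 times the median in replicates 2 and 3, and replicate 1 listed no region within 200 bp of its summit, which was 16 bp downstream of the start.

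Of the 6 Rpt ATPase genes, Rpt5 and Rpt1 had a thresholded summit. Rpt5 (3R 23752619 to 23753042, signal 176) had 2.69, 3.05 and 2.58 times the median in replicates 1, 2 and 3 (2.77 ± 0.248, SD, n = 3). The summit was 45 bp upstream of Rpt5 and 3 bp downstream of the start of RanBP3, which encodes a nuclear transport factor. Rpt1 (2R 7653783 to 7654206, signal 123) had 1.13, 2.61 and 1.78 times the median (1.84 ± 0.744, SD, n = 3), was strong in 1 replicate only, and had its summit 41 bp upstream of a start with no other gene close by. Values of Rpt5 stayed close together over the replicates, whereas the highest value of Rpt1 was more than 2 times its lowest.

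In the core particle, the thresholded genes were Prosalpha3, Prosbeta1 and Prosbeta5. Prosalpha3, whose yeast counterpart holds the gate of the outer ring shut, had a signal of 182 (2R 20994649 to 20995072) and 3.06, 2.09 and 3.39 times the median in replicates 1, 2 and 3 (2.85 ± 0.677, SD, n = 3). Prosbeta1, the caspase-like catalytic subunit, had a signal of 167 (2R 16014629 to 16015052) and 3.25, 2.89 and 1.09 times the median (2.41 ± 1.16, SD, n = 3). Prosbeta5, the chymotrypsin-like catalytic subunit, had a signal of 130 (2R 10819743 to 10820166) and 0.825, 2.28 and 2.72 times the median (1.94 ± 0.990, SD, n = 3). Each was strong in 2 of the 3 replicates, and the weak replicate differed between them. The summits were 39, 54 and 23 bp upstream of Prosalpha3, Prosbeta1 and Prosbeta5, and the same windows held the starts of dgt3 (augmin subunit), Rrp42 (RNA exosome subunit) and dgo (planar cell polarity). By ring, 1 of 7 alpha genes (14.3%) and 2 of 7 beta genes (28.6%) were thresholded.

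**Figure D2:**
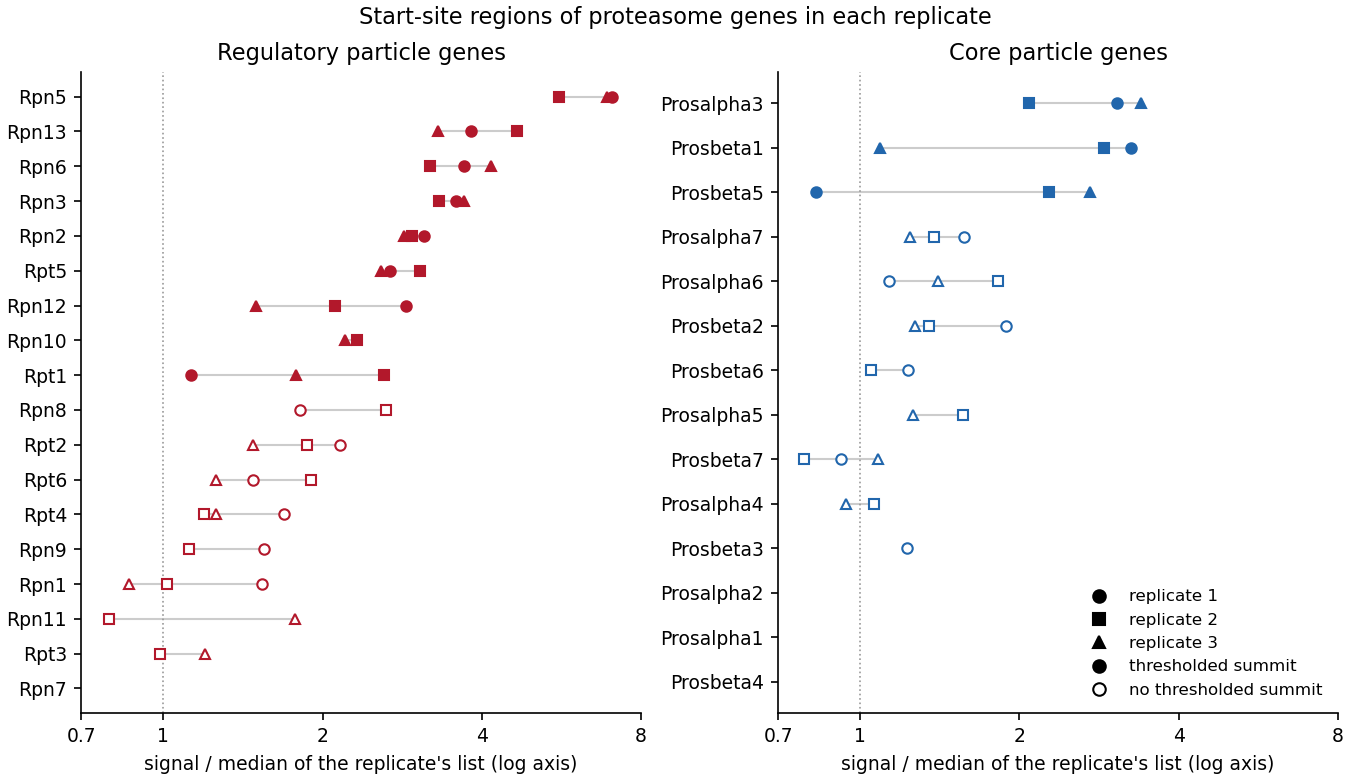
Signal of the start-site region of each broadly expressed gene in replicates 1, 2 and 3 (marker shapes), divided by the median of that replicate's list (x axis, log scale), with a row per gene and a grey line joining its replicates; filled markers are genes with a thresholded summit, open markers genes without one, and a missing marker means no matched region. Rpn5 stands apart at 5.61 to 7.04 times the median, and the other thresholded genes lie between 0.825 and 4.67.

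The plot of members by replicate also shows how far the thresholded call follows the replicates. Of the 12 thresholded members, 11 were listed in all 3 replicates, 6 were strong in all 3, 4 in 2 and 2 in 1. The 6 that were strong throughout were all regulatory particle genes: Rpn2, Rpn3, Rpn5, Rpn6, Rpn13 and Rpt5. The number of strong replicates was not counted over all genes with a thresholded summit, so these counts describe the members alone. Among the 11 with values in every replicate, the highest value came from replicate 1 in 4 genes, from replicate 2 in 3 and from replicate 3 in 4, so no replicate was highest throughout. Requiring a strong region in both of 2 replicates left 7 proteasome genes without replicate 2, 7 without replicate 3 and 9 without replicate 1. The 9 were 8 of the thresholded members and Rpn8, which is outside the threshold, and the 7 were thresholded members in both cases. For the core particle it left 1 of 14 genes whichever replicate was left out, and the share of all genes under that rule was 13.8% to 14.1%.

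The members just outside the threshold formed a continuous series with those just inside it. Rpt1 and Rpn10 were lowest inside, at 123 each, and the next 6 were Rpn8 (109), Rpt2 (106), Rpt6 (105), Prosalpha7 (99.0), Rpt4 (92.5) and Prosalpha6 (91.6). Rpn8, the lid partner of the deubiquitinase Rpn11, had 1.82 and 2.64 times the median in replicates 1 and 2 and no region within 200 bp of the pooled summit in replicate 3, where a region at 1.97 times the median peaked 221 bp from it. The pooled summit was 381 bp upstream of an inner start and 56 bp downstream of the start of the kinase gene Slik. The ATPase gene Rpt2 had 2.15, 1.87 and 1.48 times the median in replicates 1, 2 and 3 (1.83 ± 0.339, SD, n = 3), with its summit 8 bp downstream of the start. Counting any start-site region, Rpn8 was strong in replicates 2 and 3 and Rpt2 in replicate 1, and no other member outside the threshold was strong in any replicate.

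Rpt6, another ATPase gene, had 1.48, 1.90 and 1.26 times the median in replicates 1, 2 and 3, and Rpt4 had 1.69, 1.19 and 1.26. The outer-ring gene Prosalpha7 had 1.57, 1.38 and 1.24, and Prosalpha6 had 1.13, 1.82 and 1.40. All these values were above the list medians, and none was strong in any replicate. The lowest replicate value of Rpn12 (1.50) lay among them. Those of Rpt1 (1.125), Prosbeta1 (1.09) and Prosbeta5 (0.825) lay below all of them. In single replicates, genes on both sides of the threshold therefore cannot be separated by signal.

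The weakest listed members were Prosbeta3 (41.9), Prosalpha2 (38.7) and the lid gene Rpn7 (33.5). Prosbeta3, a beta ring gene, had a matched region in replicate 1 only (1.23 times the median). Prosalpha2 and Rpn7 had no matched region in any replicate. Replicate 1 did list a region 8 bp upstream of Prosalpha2 (0.795 times the median), 214 bp from the pooled summit. It also listed a region 112 bp upstream of Rpn7 (0.742 times the median), 251 bp from the pooled summit. The pooled Rpn7 summit was 363 bp upstream of Rpn7 and 38 bp upstream of AP-2mu, a clathrin adaptor gene. Genes chosen for their roles after their values were seen were Prosbeta2 (86.5), the trypsin-like catalytic subunit, Rpn1 (71.2), a base scaffold, and Rpn11 (59.5), the deubiquitinase of the lid, and none of these was strong in any replicate. The broadly expressed genes with no relaxed start-site region, also named after their values were seen, were Prosalpha1, whose nearest relaxed summit was 3397 bp away, and Prosbeta4, 649 bp away.

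In the pooled relaxed list the testis-type gene with a start-site region was Prosbeta2R2, with a signal of 56.8, near the median of the pooled list. It had 0.933, 1.03 and 1.61 times the median in replicates 1, 2 and 3 (1.19 ± 0.369, SD, n = 3). The summit lay 237 bp upstream of Prosbeta2R2 and 108 bp downstream of the start of its divergent neighbour CG1116, which was the nearer gene. The other 15 testis-type genes had no pooled relaxed summit at a start or within the gene, and their nearest pooled summit was 1281 to 129682 bp from a start. Single replicates listed weak start-site regions for Rpt3R (0.656 times the median in replicate 1) and for Prosalpha6T and Rpn12R (0.856 and 0.664 times in replicate 2), named after their values were seen. In whole embryos, a lack of the protein at these genes and binding in few cells cannot be told apart.

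Thresholded summits lay close to the proteasome gene starts. Of the 12 members, 10 had the summit upstream (83.3%), the median position was 47 bp upstream, and 11 were within 200 bp (91.7%). Over all 2577 genes with a thresholded summit, 83.4% had it upstream, the median was 101 bp upstream and 72.1% were within 200 bp. Rpn5, at 292 bp upstream, was the member outside 200 bp. The upstream share was thus close to that of all genes, and the difference in distance was not tested.

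**Figure D3:**
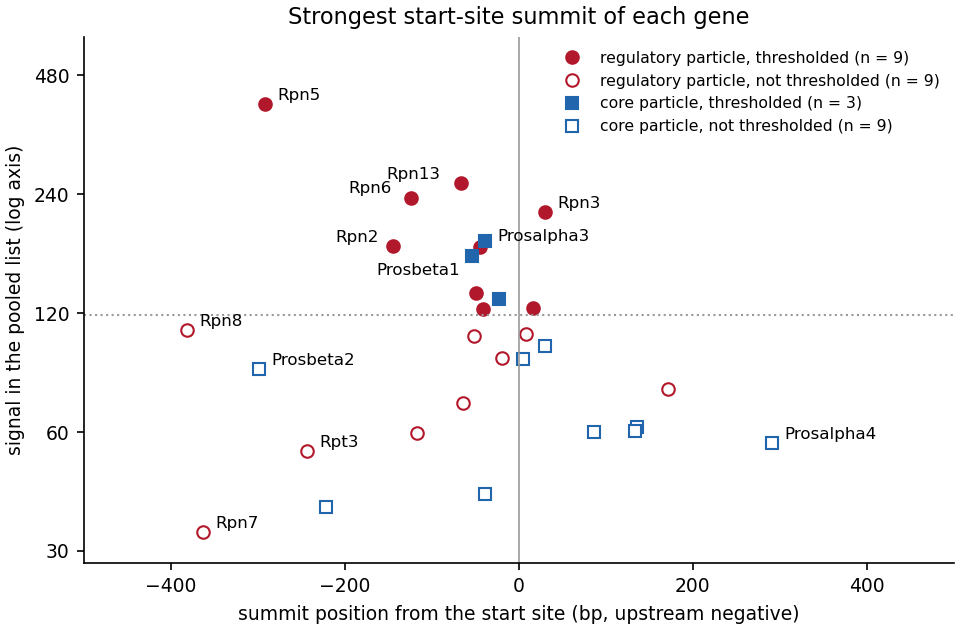
Position of the strongest start-site summit of each broadly expressed member with a listed region (x axis, bp from the start, upstream negative) against its pooled signal (y axis, log scale), by particle, with filled markers for thresholded and open markers for other summits; the dotted horizontal line is the lowest thresholded signal. Of the 12 thresholded summits, 11 lie between 144 bp upstream and 30 bp downstream, and Rpn5 lies at 292 bp upstream.

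Many proteasome promoters are shared with a neighbour, which bears on whose start a summit is assigned to. Another gene started within 500 bp on the opposite strand, pointing away, at 21 of the 32 broadly expressed genes (65.6%), at 3 of the 16 testis-type genes (18.8%) and at 3815 of all genes (27.3%). With such a divergent neighbour, 8 of 21 broadly expressed genes were thresholded (38.1%), against 1344 of 3815 of all genes (35.2%). Without one, 4 of 11 broadly expressed genes were thresholded (36.4%), against 1233 of 10153 of all genes (12.1%). The members' share was thus nearly the same in both arrangements, while that of all genes was lower without a divergent neighbour. In the regulatory particle 6 of 12 genes with and 3 of 6 without a divergent neighbour were thresholded. In the core particle the counts were 2 of 9 (22.2%) with and 1 of 5 (20.0%) without one. The 4 thresholded members without a divergent neighbour were Rpn10, Rpn12, Rpt1 and Prosalpha3, and no test of these small counts was made. Prosalpha3, the core particle gene among them, is a borderline case. Its summit was also 480 bp upstream of dgt3, whose divergent start lay just beyond 500 bp from that of Prosalpha3.

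**Figure D4:**
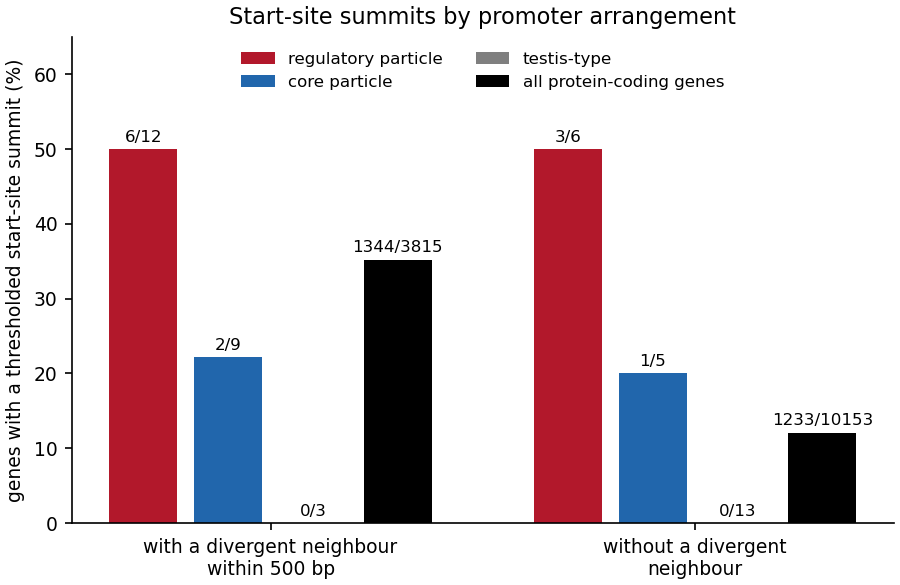
Share of genes with a thresholded start-site summit (y axis, percent) with and without a divergent neighbour within 500 bp, for regulatory particle, core particle, testis-type and all protein-coding genes, with counts on the bars. The regulatory particle is at 50.0% in both arrangements, and all genes are at 35.2% with and 12.1% without a divergent neighbour.

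Of the 12 member summits, 9 (75.0%) also lay within 500 bp of another gene's start, against 1385 of 2577 for all genes with a thresholded summit (53.7%). The member was the nearest gene in 9 of 12 cases (75.0%), against 74.0% of all genes with a thresholded summit. The exceptions were Rpn5, Rpn2 and Rpt5, where Hat1, Slbp and RanBP3 were nearer. At the other shared summits the member was nearer, by a margin that varied. It was small at Rpn6 (124 bp, ave 126 bp) and Prosbeta1 (54 bp, Rrp42 67 bp) and large at Prosalpha3 (39 bp, dgt3 480 bp). For all 9 shared summits, binding related to the neighbour and to the proteasome gene cannot be told apart.

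By chromosome arm, 6 of the 13 members on 2R were thresholded, 3 of 14 on 3R, 2 of 7 on 3L, 1 of 8 on 2L and 0 of 6 on X. Over all genes of these arms the shares were 18.6% on 2R, 20.3% on 3R, 18.5% on 3L, 17.6% on 2L and 16.8% on X, and the members are too few for a difference between arms to be read. No member lies on the fourth chromosome, where Drosophila heterochromatin proteins are known to be abundant.

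Short sequence motifs were then counted on both strands within 100 bp of start sites and of summits. CGATA, the core letters known for the insulator protein BEAF-32, was present at a start of 24 of 32 broadly expressed genes (75.0%), 4 of 16 testis-type genes (25.0%) and 6238 of all genes (44.7%). The share was alike in the regulatory particle, 14 of 18 (77.8%), and the core particle, 10 of 14 (71.4%). It did not separate members by binding: CGATA was at 9 of 12 with and 15 of 20 without a thresholded summit (75.0% of each). Over all genes it was at 58.8% with and 41.5% without one. Around the summits themselves, CGATA was within 100 bp at 10 of 12 members (83.3%) and at 846 of all 2089 thresholded start-site summits (40.5%). Rpn13 and Rpn2 were the exceptions.

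TATCGATA, the element known for the factor DREF, contains CGATA on both strands and is counted in both searches. It was at a start of 9 of 32 broadly expressed genes (28.1%), 1 of 16 testis-type genes (6.25%) and 8.48% of all genes. It lay within 100 bp of the summits of Prosalpha3, Prosbeta1, Rpn3 and Rpt5, or 4 of 12 (33.3%), against 9.05% of all thresholded start-site summits. In the sequences printed above, the Rpt5 interval holds TATCGATA preceded by 2 further TATCG, the Rpn12 interval holds 3 separate CGATA and the Rpn10 interval holds 2. The Prosalpha6 interval holds TATCGATA and a further CGATA close to the start although its region stayed below the threshold, and the Prosalpha6T interval holds neither. That pair is only an example, and other pairs, named after their values were seen, differed. TATCGATA was at a start of Rpt3R and not of Rpt3, and CGATA at Prosbeta4R1 and not at Prosbeta4. Both Prosalpha1 and Prosalpha1R held CGATA.

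Other promoter letters were rare at the starts of members with a thresholded summit. GGTCACAC, from the motif bound by M1BP, was at a start of 6 of 32 broadly expressed genes (18.8%) and 7.55% of all genes. TGACNNNGC, the core of the antioxidant response element bound by the Cnc protein, was at 5 of 32 (15.6%) and 8.52% of all genes. Each was at 0 of the 12 members with a thresholded summit: the genes holding them, such as Rpn7, Rpn1, Prosalpha2 and Prosbeta7, were all among the 20 without one. Over all genes, both motifs were more frequent with a thresholded summit than without: 11.6% and 6.62% for GGTCACAC, and 11.2% and 7.92% for TGACNNNGC. A count of 0 among 12 members, by the limit that 3 counts allow, includes all these shares, and the difference was not tested. GAGAG, for GAGA factor, was at 4 of 32 (12.5%) and 28.6% of all genes, CAGCTG at 1 of 32 (3.12%) and 17.4%, and CACGTG at 0 of 32 and 3.68%. A match of letters describes the DNA and does not show that a factor binds there, and genes with several starts had more windows to match.

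Genes of the same pathway that the name rule does not cover gave a comparison. They include the lid subunit gene Sem1, which the lid and regulatory particle counts above leave out. A list of 37 names of ubiquitin genes, conjugating enzymes, assembly factors, shuttle factors and regulators had 33 in the annotation. Of these, 12 had a thresholded start-site summit (36.4%, 20.4% to 54.9%), next to 37.5% of the broadly expressed proteasome genes and 18.4% of all genes. In replicates 1, 2 and 3, 13, 14 and 12 were strong (39.4% ± 3.03, SD, n = 3). A relaxed region was listed for 30 of 33 (90.9%).

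Among the regulators of proteasome genes, cnc, whose CncC isoform is a transcriptional activator of proteasome subunits in Drosophila, had a signal of 184 and 2.10, 3.08 and 3.48 times the median in replicates 1, 2 and 3 (2.89 ± 0.712, SD, n = 3). Keap1, its inhibitor, had 197, and 1.98, 4.00 and 3.82 times the median (3.27 ± 1.12, SD, n = 3). Both were lowest in replicate 1. The cnc summit lay 363 bp downstream of an inner start, 1 of 10 annotated starts, and 36655 bp from the outermost one. The value is thus that of the gene's strongest start-site summit and not of the CncC isoform. With the outermost starts alone, the same 12 genes of the list kept a thresholded summit. The outermost cnc start therefore also had a thresholded summit, not stronger than this one, whose value was not read. The Cnc partner gene maf-S had no summit within 500 bp of its start, but a relaxed summit 513 bp and a thresholded summit 625 bp from it. Pomp, the maturation factor of the core particle, had 216, and 3.73, 3.92 and 2.57 times the median (3.41 ± 0.732, SD, n = 3). Uch-L5, the deubiquitinase that Rpn13 recruits, had 182, and 3.74, 2.85 and 1.91 times the median (2.83 ± 0.911, SD, n = 3).

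The conjugating enzyme genes Ubc6 and eff had signals of 281 and 247, and the ubiquitin genes RpS27A, Ubi-p63E and Ubi-p5E had 257, 205 and 178. Ubi-p5E had no matched region in replicate 3. RpL40, also a ubiquitin gene, was below the threshold at 55.4, with a matched region in replicate 3 only. The other thresholded genes of the list were ntc (278), an F-box gene, Plap (160) and CG11885 (139). TER94, the segregase that extracts ubiquitinated proteins, and its cofactor Npl4 were just below the threshold at 106 and 102. Sem1, a small lid subunit whose name the rule does not cover, and the proteasome-bound deubiquitinase Usp14 had no listed start-site region. None of these genes reached the Rpn5 signal of 405.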

How the data were processed

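The embryo ChIP-seq of tagged Su(var)3-7 was read as 1 group of 3 biological replicates, from the dm6 lists. Per the deposited inventory texts, the authors listed relaxed regions for each replicate and for the pool, each against 1 control file, and derived the thresholded list by the irreproducible discovery rate. Signal is the strength of a region as deposited by the authors; its scale is not stated. No source used here gives the aligner or the peak caller. Read depth is unknown, and the intervals cover the counting of genes only.

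Start sites (19630) came from Ensembl release 115, BDGP6.54. Intervals that the thresholded list repeats with another summit (17) counted once per summit. Regions are 1-based. A replicate region was matched within 200 bp of the pooled summit. The labels call the replicates biological and say nothing more of how embryos were divided. With 1 group no test between groups was possible, and none was made between gene sets. The counting was tested on simulated summits. Intervals are exact at 95%, and a count of 0 is given as the limit that 3 counts allow.

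Named were every member with a thresholded summit, the 6 strongest and 3 weakest other members with a region, every testis-type gene with a pooled region, and the genes sharing the summit; other names are marked as chosen after their values were seen, except the members of the pathway list. Members, lists and motifs were chosen with earlier results of these data known. Python 3.11.15, NumPy 2.4.6, pandas 2.3.3, SciPy 1.17.1 and matplotlib 3.10.9 were used.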

Additional observations from a re-analysis of the deposited data

How the results depend on the processing

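The shares depend mostly on how deep the list is read. With the thresholded peaks above their median signal, they were 10.4% of all proteasome genes, 22.2% of the regulatory particle, 7.14% of the core particle and 27.3% of the other ubiquitin-proteasome genes, against 10.1% of all genes. With all pooled relaxed regions they were 64.6%, 100%, 85.7% and 90.9%, and 6.25% of the testis-type genes, against 51.9% of all genes. Giving each summit to its nearest gene alone left 18.8% of the proteasome genes and 33.3% of the regulatory particle (all genes 13.9%). With the outermost start sites alone these were 22.9% and 44.4% (all genes 16.5%). Windows of 200 and 1000 bp moved the other ubiquitin-proteasome genes to 33.3% and 42.4% (all genes 13.9% and 21.4%), and left the proteasome shares as they were. Leaving out each replicate in turn gave 14.6% to 18.8% of all proteasome genes, 33.3% to 44.4% of the regulatory particle, 7.14% of the core particle each time, and 27.3% to 33.3% of the other genes, against 13.8% to 14.1% of all genes; this rule asks for a strong region in both remaining replicates and is stricter. Of 57 alternative member signals, 29 moved by less than 1 SD and 28 by more, all 28 downwards, and the ratio to the pooled value was 0.581 to 1.016. The lowest was Rpn5 in a 200 bp window, 4.44 against 7.64 times the list median, where its weaker summit is read. For the other members that window reads the same summit, so their value could not move. The remaining alternatives are means of multiples within the replicates' own lists, another measure than the pooled multiple. With all replicates it was lower in all 11 members, so the downward moves do not show dependence on a replicate. No paired analysis was possible because there is 1 group. Small sets (14 to 18 genes) change by several percent with each gene, and the signal scale and read depth are unknown.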
